A study of Mus musculus with 6 samples.

Results

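The transcription factors Foxp3, Ikaros and Runx, with their close relatives and partners, were followed across libraries of mouse regulatory T cells (Treg). They were taken by name as 10 genes of the 24421 in the table: Foxp3, the Ikaros family members Ikzf1, Ikzf2, Ikzf3, Ikzf4 and Ikzf5, the chromatin organiser Satb1, and Runx1, Runx3 and their shared partner Cbfb. The rule uses names only, but the genes were chosen with earlier results of these data known. The 6 libraries were made by SMART-seq, which makes amplified full-length cDNA from polyadenylated RNA. They form 3 groups of 2: Treg stimulated in the presence of iBP, Treg stimulated without it, and unstimulated Treg. All cells came from the spleen and lymph nodes of wild-type (WT) mice, and the design text describes Treg activated in vitro and iBP as an inhibitor of H2AK119ub1, the ubiquitin mark on histone H2A placed by Polycomb repressive complex 1. The stimulus, its duration, the dose of iBP and the age of the mice are not given in the labels. No group received iBP without stimulation, and the Kdm2b cKO cells that the design text names were not analysed here.

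Foxp3 is the forkhead factor that defines the Treg lineage, and its continued expression keeps the regulatory programme in place. Ikaros proteins bind DNA through zinc fingers and recruit chromatin-remodelling corepressors. In mouse Treg, Eos (Ikzf4) is known as a corepressor partner of Foxp3 and Helios (Ikzf2) as a stabiliser of the Treg state. Runx1 and Runx3 bind DNA through the Runt domain together with CBFβ, bind at the Foxp3 locus and, in the case of Runx1, bind Foxp3 protein. Satb1 folds chromatin around lineage genes in developing T cells and is known as a target that Foxp3 holds down in mature Treg.

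The RefSeq promoter table for GRCm38.p6 held 15 windows for 7 of the 10 genes, each of 300 bases around an annotated start, and named none for Ikzf2, Ikzf3 or Ikzf4. The windows shown here are those of Foxp3, the gene whose level differed most between groups, and a window of Runx3. The latter shares a run of letters with a window of Runx1. The windows of Runx1 and the window at the other Runx3 start are not printed. Capitals mark matches, on either strand, to the 4 motifs searched: RUNX (TGTGGT), Ikaros (TGGGAA), forkhead (TGTTTNC) and STAT (TTCNNNGAA). Bases from the first annotated exon base onward are left out.
Foxp3, start at 7580483, chrX:7580233-7580482, plus strand: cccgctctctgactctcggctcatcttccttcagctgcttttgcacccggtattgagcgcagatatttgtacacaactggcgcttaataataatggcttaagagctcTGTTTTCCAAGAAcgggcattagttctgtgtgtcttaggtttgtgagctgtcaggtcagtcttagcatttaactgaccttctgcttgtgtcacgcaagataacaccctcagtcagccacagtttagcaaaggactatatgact
Foxp3, start at 7579676, chrX:7579426-7579566, plus strand: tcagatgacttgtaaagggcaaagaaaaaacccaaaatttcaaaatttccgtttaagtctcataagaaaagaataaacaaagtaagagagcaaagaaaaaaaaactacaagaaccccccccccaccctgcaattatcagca
Runx3, start at 135120645, chr4:135120395-135120644, plus strand: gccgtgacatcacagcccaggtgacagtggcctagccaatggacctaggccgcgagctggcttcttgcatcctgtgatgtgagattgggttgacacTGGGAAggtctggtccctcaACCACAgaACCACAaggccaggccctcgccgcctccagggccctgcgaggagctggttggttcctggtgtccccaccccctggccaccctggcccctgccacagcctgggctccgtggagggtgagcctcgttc
Runx1 and Runx3, longest shared run: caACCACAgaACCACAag

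In the first Foxp3 window a forkhead match (TGTTTTC) began at position -143 from the annotated start and a STAT match (TTCCAAGAA) at -139, so the pair overlap. Positions count the start as 1 and the base before it as -1. The window at the other Foxp3 start held an Ikaros match (TTCCCA) at position 4, past the printed stretch. The run shared by Runx1 and Runx3 is 18 bases long and holds 2 RUNX motifs. It lies at chr16:92826031-92826048 on the minus strand, at position 27 of the Runx1 window, and at chr4:135120509-135120526 on the plus strand, at position -136 of the Runx3 window. Of all 32851 windows in the table, 4 held this run, and they belong to Runx1, Runx2, Runx3 and the predicted gene Gm16225. Among those 32851 windows, 16.8% held the RUNX motif, 25.6% the Ikaros motif, 20.5% the forkhead motif and 8.3% the STAT motif. Among the 15 windows of the 7 genes, the RUNX motif was in 2, the Ikaros motif in 4, the forkhead motif in 3 and the STAT motif in 3. These matches describe letters in a window and not binding.

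Expression was given as FPKM, a fragment number made relative to transcript length and library total, so levels may be set side by side between genes. Summed FPKM per library ran between 366044 and 381302, and between 12596 and 13592 genes had a value above 0. Read depth is unknown, so the error of each value comes from the spread between libraries. On the first principal component, which held 33.5% of the variance, unstimulated replicate 1 lay at -37.9 and unstimulated replicate 2 at -9.32, while the 4 stimulated libraries lay between 10.5 and 13.3. Unstimulated replicate 1 therefore stands apart on this component, and differences of the 10 genes from the unstimulated group are also given without it. On the second component unstimulated replicate 2 stood apart, at -27.0, with the other libraries between -4.67 and 16.2. Values without replicate 1 rest on replicate 2 alone for that group, so they are not the cleaner ones. Treg markers (Foxp3, Il2ra, Ctla4, Ikzf2, Tnfrsf18, Cd4, Cd3e and Cd3d) were all present, with summed FPKM of 1699 and 1728 with iBP, 1727 and 1853 when stimulated and 1276 and 1256 when unstimulated. All 8 B cell markers were present too, with summed FPKM of 760 and 802 with iBP, 902 and 871 when stimulated and 844 and 878 when unstimulated, of which Cd79a made up between 234 and 291 FPKM. Of 6 myeloid markers, 5 stayed under 1 FPKM in every library. Summed FPKM of all 6 ran between 66.5 and 100, so nearly all of it came from the remaining marker. Summed FPKM of the 2 CD8 markers ran between 8.48 and 14.0, that of the 5 conventional CD4 markers between 52.1 and 67.5, that of the 5 dendritic markers between 4.04 and 8.44 and that of the 4 NK and innate lymphoid markers between 16.6 and 27.2. Erythroid and platelet markers summed to 44.5 and 155 with iBP, 51.0 and 44.8 when stimulated and 216 and 42.0 when unstimulated, so 1 library in each of the iBP and unstimulated groups was high. No marker was at 0 in all libraries. In bulk RNA, fewer cells of a type and less RNA per cell cannot be told apart, and the part of other cells in the results that follow was not tested.

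All 10 genes were expressed above the filter of 1 FPKM in at least 2 libraries, which 10436 genes passed. Foxp3, on chrX:7573644-7595245 (plus strand), had the highest mean of the 10 and exceeded 93.2% of tested genes. Satb1, on chr17:51736187-51833290 (minus strand), exceeded 89.5% and Ikzf1, on chr11:11685003-11772926 (plus strand), exceeded 88.2%. The lower end was held by Ikzf5 at 59.8% and Runx3 at 56.2%. The order of levels changed with stimulation at its upper end. Foxp3 ranked first in both iBP libraries and in both stimulated libraries and 4th in both unstimulated libraries, where Satb1 ranked first. Its mean was 1.90 times that of Satb1, the next gene, with iBP and 1.86 times that of Ikzf1, the next gene, when stimulated. Lower in the order many neighbours could not be ranked: in every group the libraries of at least 3 adjacent pairs overlapped. With iBP these were Ikzf3 and Cbfb, Cbfb and Runx1, and Ikzf5 and Runx3. When stimulated they were Ikzf1 and Satb1, Satb1 and Ikzf4, Ikzf3 and Cbfb, and Cbfb and Runx1. In unstimulated Treg they were Ikzf2 and Ikzf1, Ikzf1 and Foxp3, Foxp3 and Ikzf4, Runx1 and Ikzf5, Ikzf5 and Cbfb, and Cbfb and Runx3.

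**Figure D1:**
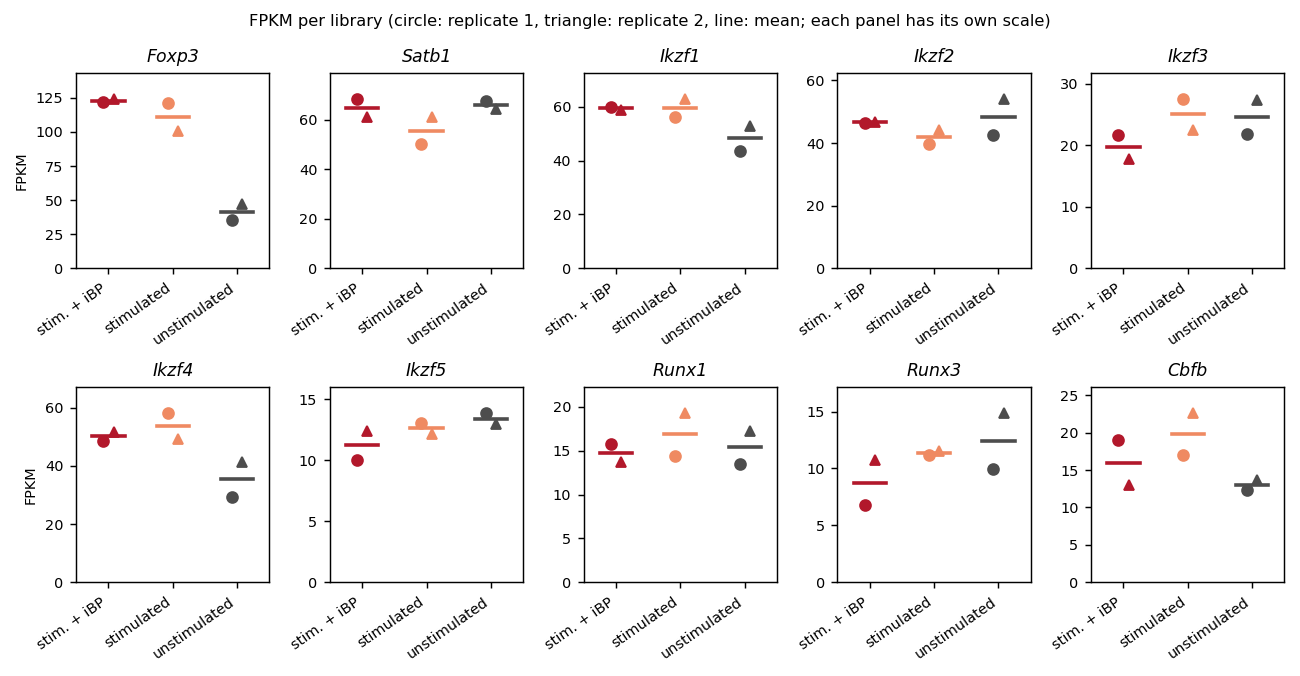
FPKM of each of the 10 genes in each of the 6 libraries, with symbols for libraries and lines for group means. The 4 stimulated Foxp3 libraries lie between 101 and 124 FPKM, above both unstimulated libraries, while most other genes show overlapping groups.

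The first comparison, stimulated against unstimulated Treg, asks how stimulation moves these factors. Foxp3 rose, and the other 9 did not pass the test. Foxp3 had 121 and 101 FPKM in stimulated libraries, against 35.5 and 47.1 FPKM in unstimulated libraries. Both stimulated libraries were higher than both unstimulated ones. The means were 111 ± 14.3 FPKM when stimulated and 41.3 ± 8.20 FPKM when unstimulated (SD, n = 2 libraries each). On the log2(FPKM + 1) scale the difference was 1.41 ± 0.16 (SE; 95% interval 1.07 to 1.75; limma adjusted p = 0.000923), or 2.66-fold. Without unstimulated replicate 1 it was 1.21 (adjusted p = 0.00583), and the adjusted p stayed at 0.0117 or below whichever library was left out. It did not pass in the fit without a filter on low values (limma adjusted p = 0.132) or without a trend of the variance with level (0.117). Over the alternatives to the main fit the adjusted p ran from 0.000316 to 0.132.

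Thus 1 of 10 genes was called and it was higher, against 1.29% of all tested genes (135 of 10436), with 0.968% called higher and 0.326% called lower. Of the 10, 3 had an unadjusted p under 0.05, against 10.8% of tested genes. The libraries of the groups did not overlap for 5 of the 10, 4 higher and 1 lower, against 37.8% of all tested genes, 18.7% higher and 19.1% lower. The median log2 difference of the 10 was 0.08, and that of all tested genes was -0.0024. The median size of the difference regardless of sign was 0.22 for the 10 and 0.21 for all tested genes.

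Foxp3 shares its locus with other annotated genes. Ppp1r3f, on the opposite strand, shares 640 bp with it and had 6.98 or less FPKM in every library. Ccdc22, also on the opposite strand, shares 1437 bp and had 14.0 and 13.6 FPKM in stimulated libraries, against 9.06 and 6.87 FPKM in unstimulated libraries. Its log2 difference was 0.73 (limma adjusted p = 0.169). Both neighbours were below Foxp3 in every library. The strand used in counting is not given, so reads in the shared bases cannot be assigned.

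Ikzf4, which encodes Eos, lies on chr10:128630843-128645991 (minus strand). It had 58.3 and 49.4 FPKM in stimulated libraries, against 29.2 and 41.5 FPKM in unstimulated libraries. Both stimulated libraries were higher, but the unstimulated pair differed widely. The log2 difference was 0.61 ± 0.18 (SE; 95% interval 0.22 to 1.0; limma adjusted p = 0.168). Over the alternatives its adjusted p ran from 0.0423 to 0.597. It passed only without unstimulated replicate 2 (0.86; adjusted p = 0.0423), and without unstimulated replicate 1 the difference was 0.36 (adjusted p = 0.597).

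Cbfb, on chr8:105170674-105217989 (plus strand), encodes the partner that raises the affinity of Runx proteins for DNA. It had 17.0 and 22.7 FPKM in stimulated libraries, against 12.3 and 13.7 FPKM in unstimulated libraries. The groups did not overlap, and the log2 difference of 0.56 ± 0.23 (SE; 95% interval 0.06 to 1.06) had a limma adjusted p of 0.387. Ikzf1, which encodes Ikaros itself, had 56.1 and 63.0 FPKM in stimulated libraries, against 43.6 and 52.9 FPKM in unstimulated libraries. Its log2 difference was 0.30 ± 0.15 (95% interval -0.018 to 0.62; limma adjusted p = 0.492). Without unstimulated replicate 1 the difference of Cbfb was 0.49 and that of Ikzf1 0.17.

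Satb1 was the only gene of the 10 with both stimulated libraries below both unstimulated ones. It had 50.1 and 61.1 FPKM in stimulated libraries, against 67.3 and 64.1 FPKM in unstimulated libraries. The log2 difference of -0.24 ± 0.15 (95% interval -0.56 to 0.07; limma adjusted p = 0.605) did not pass, and it was -0.21 without unstimulated replicate 1 and -0.10 without stimulated replicate 1. Ikzf2, which encodes Helios and lies on chr1:69531214-69687245 (minus strand), had 39.7 and 44.3 FPKM in stimulated libraries, against 42.5 and 54.2 FPKM in unstimulated libraries. The groups overlapped, and the difference was -0.19 ± 0.16 (95% interval -0.54 to 0.15; limma adjusted p = 0.746). It depended on the unstimulated pair, at -0.36 without replicate 1 of that group and -0.020 without replicate 2.

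The other 4 genes had overlapping groups and differences near 0. Ikzf3 (Aiolos) differed by 0.03 ± 0.19 (95% interval -0.39 to 0.45). Runx1 differed by 0.12 ± 0.22 (-0.35 to 0.59), Runx3 by -0.10 ± 0.26 (-0.68 to 0.48) and Ikzf5 (Pegasus), the most divergent family member, by -0.08 ± 0.21 (-0.53 to 0.37). None of these 4 intervals reaches the difference of Foxp3. Leaving out unstimulated replicate 1 gave -0.13 for Ikzf3, -0.045 for Runx1, -0.37 for Runx3 and -0.031 for Ikzf5. The direction of Ikzf3, Runx1 and Runx3 changed when 1 library was left out.

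**Figure D2:**
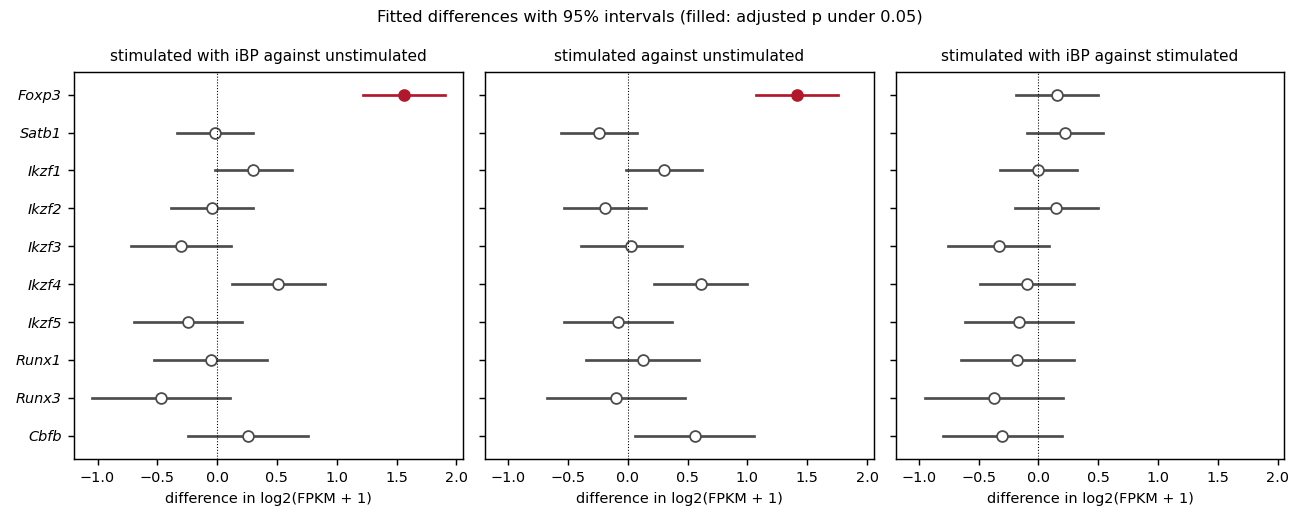
Log2 difference of each of the 10 genes with its 95% interval in the 3 comparisons, on the log2(FPKM + 1) scale. Foxp3 stands at 1.41 for stimulated against unstimulated and 1.57 for iBP against unstimulated, and intervals for iBP against stimulated all include 0.

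Setting stimulated Treg with iBP against stimulated Treg without it asks whether the inhibitor altered these levels under the same stimulus. None of the 10 genes passed limma's test, and none had an unadjusted p under 0.05, against 0.00958% of tested genes called (1 of 10436) and 4.77% with an unadjusted p under 0.05. The only gene to pass was Dnajb11, which encodes a chaperone of the endoplasmic reticulum and is in none of the lists below. In unstimulated libraries Dnajb11 had 21.0 and 16.9 FPKM. Against unstimulated, the log2 difference was -2.48 when stimulated without iBP (limma adjusted p = 0.000198) and -0.31 with iBP (0.648). It had 16.1 and 14.0 FPKM with iBP, against 2.69 and 2.44 FPKM when stimulated without it, a log2 difference of 2.17 (limma adjusted p = 0.00813). That call ended without stimulated replicate 1 (adjusted p = 0.0563) and without stimulated replicate 2 (0.136), in a range of 0.0034 to 0.359 over the alternatives.

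Foxp3 had 122 and 124 FPKM with iBP, against 121 and 101 FPKM when stimulated without it. The iBP pair was tight and barely above the higher stimulated library. The log2 difference was 0.15 ± 0.16 (95% interval -0.19 to 0.50; limma adjusted p = 0.998). The libraries of the groups did not overlap for 5 of the 10 genes, Foxp3, Ikzf2 and Satb1 higher and Ikzf3 and Runx3 lower, against 34.6% of all tested genes, 13.6% higher and 21% lower. Satb1 had 68.5 and 61.2 FPKM with iBP, against 50.1 and 61.1 FPKM without it, a difference of 0.22 ± 0.15 (95% interval -0.095 to 0.54). Its lower iBP library was almost level with the higher stimulated one.

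Ikzf3, on chr11:98464902-98546031 (minus strand), had 21.7 and 17.8 FPKM with iBP, against 27.6 and 22.6 FPKM without it. Both iBP libraries were lower, and the log2 difference was -0.33 ± 0.19 (95% interval -0.75 to 0.09). Runx3, on chr4:135120652-135177990 (plus strand), which silences Cd4 in cytotoxic T cells, had 6.79 and 10.7 FPKM with iBP, against 11.2 and 11.5 FPKM without it. The iBP libraries were lower and far apart, and the difference was -0.37 ± 0.26 (-0.95 to 0.21). Runx1, on chr16:92601466-92826149 (minus strand), had 15.7 and 13.7 FPKM with iBP, against 14.4 and 19.3 FPKM without it, which overlap.

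Cbfb had 19.02 and 13.0 FPKM with iBP, against 17.0 and 22.7 FPKM without it, a log2 difference of -0.30 ± 0.23 (95% interval -0.80 to 0.20). Ikzf2 had 46.4 and 46.8 FPKM with iBP, against 39.7 and 44.3 FPKM without it, a difference of 0.15 ± 0.16 (-0.19 to 0.49). Its iBP libraries were nearly equal. Ikzf1 had 60.0 and 58.9 FPKM with iBP, inside the 56.1 and 63.0 FPKM of stimulated libraries, with a 95% interval of the difference from -0.32 to 0.32. The interval for Ikzf4 was -0.49 to 0.29 and that for Ikzf5, on chr7:131388652-131410521 (minus strand), -0.61 to 0.29. A p above the threshold does not show that levels were equal, and the median half-width of the 95% interval was 0.41 for the 10 genes.

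Stimulated with iBP against unstimulated Treg completes the design, and it shares the unstimulated libraries with the first comparison and the iBP libraries with the second. Foxp3 had 122 and 124 FPKM with iBP, against 35.5 and 47.1 FPKM in unstimulated libraries. Both iBP libraries were higher, and the log2 difference was 1.57 ± 0.16 (SE; 95% interval 1.22 to 1.91; limma adjusted p = 0.000482), or 2.96-fold. Without unstimulated replicate 1 it was 1.37 (adjusted p = 0.00272). It did not pass without the filter (adjusted p = 0.0870) or without the variance trend (0.0975), in a range of 0.000124 to 0.0975 over the alternatives. Thus 1 of 10 genes was called, against 1.75% of tested genes, 1.03% higher and 0.728% lower, and 2 had an unadjusted p under 0.05, against 12.2%.

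Ikzf4 had 48.5 and 51.8 FPKM with iBP, against 29.2 and 41.5 FPKM in unstimulated libraries. The difference was 0.51 ± 0.18 (95% interval 0.12 to 0.90; limma adjusted p = 0.238), and it passed under none of the alternatives, whose adjusted p ran from 0.0628 to 0.709. Without unstimulated replicate 1 it was 0.27. Runx3 differed by -0.47 ± 0.26 (-1.05 to 0.11), Ikzf3 by -0.30 and Ikzf5 by -0.24, none of which passed. The value of Runx3 rested on single libraries in both groups: it was -0.18 without iBP replicate 1, -0.76 without iBP replicate 2, -0.74 without unstimulated replicate 1 and -0.20 without unstimulated replicate 2. Ikzf3 differed by -0.46 and Ikzf5 by -0.19 without unstimulated replicate 1. Groups did not overlap for 3 genes that were higher with iBP, Foxp3, Ikzf1 and Ikzf4, and 2 that were lower, Ikzf3 and Ikzf5, against 42% of all tested genes, 18.1% higher and 23.9% lower. Satb1 differed by -0.02, Ikzf2 by -0.04 and Runx1 by -0.05, and without unstimulated replicate 1 by 0.014, -0.21 and -0.22. Ikzf1 differed by 0.30 and Cbfb by 0.26, and without that library by 0.17 and 0.18.

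A contrast added after the data were seen averaged both stimulated groups against unstimulated. Foxp3 differed by 1.49 ± 0.14 (limma adjusted p = 0.000166) and was the only one of the 10 to pass, against 2.43% of tested genes, 1.51% higher and 0.92% lower. Ikzf4 differed by 0.56 ± 0.15 (adjusted p = 0.101) and Ikzf1 by 0.30 (0.327). Without unstimulated replicate 1 the values were 1.29 for Foxp3 (adjusted p = 0.00200), 0.32 for Ikzf4 (0.585) and 0.17 for Ikzf1 (0.815).

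The balance within the Ikaros family was described by the share of each gene in the summed FPKM of Ikzf1 to Ikzf5. Helios took 24.9% and 24.9% with iBP, 20.4% and 23.1% when stimulated and 28.1% and 28.7% when unstimulated. Eos took 26.0% and 27.6% with iBP, 29.9% and 25.8% when stimulated and 19.3% and 22.0% when unstimulated. Neither share overlapped between stimulated and unstimulated libraries, with Helios lower and Eos higher when stimulated. The shares of a library add up to a fixed total, so a higher share of any gene lowers those of the others. In FPKM, the levels of Helios, Aiolos and Pegasus overlapped between these groups. Among all tested genes, 37.8% had FPKM that did not overlap in this comparison.

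The ratio of Ikzf4 to Ikzf2 was 1.05 and 1.11 with iBP, 1.47 and 1.12 when stimulated and 0.688 and 0.766 when unstimulated. Eos thus exceeded Helios in all 4 stimulated libraries and was below it in both unstimulated ones. For each of these shares and for the ratio, the exact permutation test of stimulated against unstimulated (two-sided) gave p = 0.33, the smallest that 2 libraries against 2 can give. Ikaros took between 28.0% and 32.9% of the family in every library, Aiolos between 9.47% and 14.5% and Pegasus between 5.39% and 9.21%. The shares of Aiolos and Pegasus did not overlap between stimulated and unstimulated libraries either, with the same exact p of 0.33. Aiolos took 14.2% and 11.8% when stimulated, against 14.4% and 14.5% when unstimulated. Pegasus took 6.72% and 6.37% when stimulated, against 9.21% and 6.85% when unstimulated. The family sum was 187 and 188 FPKM with iBP, 195 and 191 FPKM when stimulated and 151 and 189 FPKM when unstimulated, so the low sum came from unstimulated replicate 1.

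**Figure D3:**
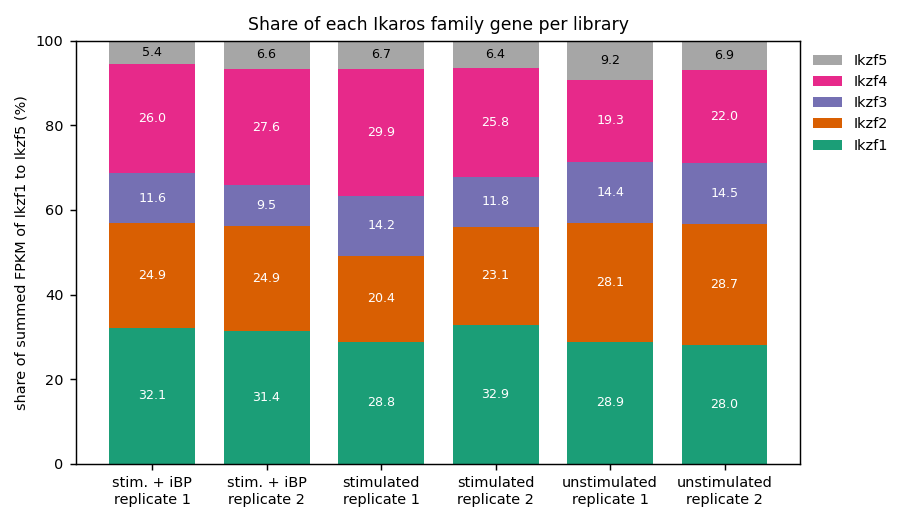
Share of each Ikaros family gene in the summed FPKM of Ikzf1 to Ikzf5, in percent, by library. Helios (Ikzf2) holds 28.1% and 28.7% of the unstimulated libraries and 20.4% to 24.9% of the stimulated ones, and Eos (Ikzf4) runs the other way.

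Ratios also set Foxp3 against its partners within each library. Foxp3 over Ikzf2 was 2.62 and 2.66 with iBP, 3.05 and 2.28 when stimulated and 0.835 and 0.869 when unstimulated. Foxp3 over Ikzf4 was 2.51 and 2.40 with iBP, 2.07 and 2.04 when stimulated and 1.21 and 1.13 when unstimulated. Foxp3 over Runx1 was 7.73 and 9.11 with iBP, 8.38 and 5.22 when stimulated and 2.64 and 2.73 when unstimulated. Foxp3 passed the test and the genes below the line did not, so these ratios largely restate the rise of Foxp3. Each of them was higher in all 4 stimulated libraries than in the unstimulated ones, as were those over Ikzf1, Cbfb and Satb1.

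The same held against a T-cell surface gene: Foxp3 over Cd4 was 1.14 and 1.36 with iBP, 1.44 and 1.21 when stimulated and 0.406 and 0.451 when unstimulated. It did not hold against Il2ra, the interleukin 2 receptor chain that Treg carry, where the ratio was 0.714 and 0.759 with iBP, 0.693 and 0.494 when stimulated and 0.33 and 0.507 when unstimulated. Stimulated replicate 2 fell inside the unstimulated range. Runx1 over Runx3 was 2.32 and 1.28 with iBP, 1.29 and 1.68 when stimulated and 1.35 and 1.16 when unstimulated, with overlapping groups. Cbfb over Runx1 was 1.21 and 0.950 with iBP, 1.18 and 1.17 when stimulated and 0.913 and 0.795 when unstimulated.

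The 5 genes whose pattern lay nearest to that of Foxp3 were found among 6308 genes with a mean of at least 5 FPKM, by the root mean square over the 6 libraries of the difference between the centred log2 values. They were Trib1 (0.0847), Kpna1 (0.121), Nfkbiz (0.123), Lrrc32 (0.129) and Entpd1 (0.155). Trib1 encodes a pseudokinase that acts in protein degradation, Kpna1 a nuclear import receptor, Nfkbiz a nuclear regulator of NF-κB, Lrrc32 the surface anchor of latent TGF-β on Treg and Entpd1 the ectonucleotidase CD39. The 5 were picked for this likeness, so their values describe it. Lrrc32 had 141 and 160 FPKM with iBP, 147 and 125 FPKM when stimulated and 50.6 and 71.1 FPKM when unstimulated. Kpna1 had 117 and 132 FPKM with iBP, 128 and 122 FPKM when stimulated and 37.3 and 43.6 FPKM when unstimulated. Trib1 and Entpd1 were less abundant, at 6.59 and 9.90 FPKM and at 3.08 and 3.49 FPKM in unstimulated libraries.

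**Figure D4:**
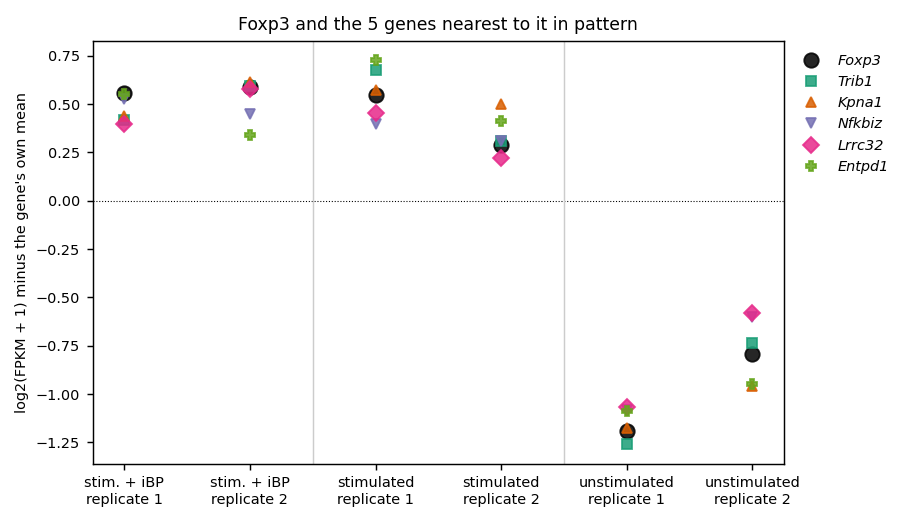
Log2(FPKM + 1) of Foxp3 and its 5 nearest genes, each centred on its own mean, in the 6 libraries. All 6 genes lie below 0 in both unstimulated libraries and above 0 in the 4 stimulated ones.

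Genes around these factors were then read by list. The lists hold 144 genes of the table, of which 132 were tested. In stimulated against unstimulated Treg 18 were higher and 5 lower, where 0.968% of all tested genes were called higher and 0.326% lower. With iBP against unstimulated 17 were higher and 6 lower, where 1.03% of all tested genes were called higher and 0.728% lower. Of these, 16 of the 23 for stimulated and 15 of the 23 for iBP also passed without unstimulated replicate 1. With iBP against stimulated none passed limma's test. The lists share genes with each other and hold none of the 10. They were chosen with earlier results of these data known, so these counts describe the lists and do not test them.

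Of 25 genes known to be activated by Foxp3 in Treg, 9 rose and 2 fell with stimulation, with a median log2 difference of 0.18. All tested genes had 0.968% called higher, 0.326% called lower and a median of -0.0024. Medians of the other lists in this comparison ran from -0.14 to 0.24. Gpr83, an orphan receptor of Treg, had 162 and 163 FPKM in stimulated libraries, against 31.6 and 31.8 FPKM in unstimulated libraries. The replicates were almost equal, and it rose by 2.32 ± 0.12 (limma adjusted p = 1.92e-06). Ecm1, a secreted matrix protein, had 457 and 555 FPKM in stimulated libraries, against 156 and 161 FPKM in unstimulated libraries, a rise of 1.66 ± 0.12 (3.06e-05). Icos, a costimulatory receptor, rose by 1.01, and Lrrc32 by 1.16. Entpd1 rose by 1.59 (limma adjusted p = 0.00632), a call that ended without stimulated replicate 1 (0.0776), in a range of 0.00224 to 0.133 over the alternatives. Socs2, a feedback inhibitor of cytokine signalling, rose by 1.36 (limma adjusted p = 0.0265), in a range of 0.00523 to 0.276. Its call ended without any 1 library but unstimulated replicate 2: 0.127 without unstimulated replicate 1, 0.0687 and 0.276 without stimulated replicates 1 and 2, and 0.0511 and 0.0536 without iBP replicates 1 and 2.

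Penk, which encodes the enkephalin precursor, and Ccr8, a chemokine receptor, fell. Penk had 114 and 118 FPKM in stimulated libraries, against 204 and 181 FPKM in unstimulated libraries (-0.72; limma adjusted p = 0.0115), a call that ended without unstimulated replicate 1 (0.0797), stimulated replicate 1 (0.0647) or stimulated replicate 2 (0.0652), in a range of 0.00176 to 0.242. Ccr8 had 337 and 377 FPKM in stimulated libraries, against 550 and 505 FPKM in unstimulated libraries (-0.56; limma adjusted p = 0.0284), in a range of 0.00294 to 0.352. That call held only with unstimulated replicate 2 as the library left out, and the adjusted p ran up to 0.137, without unstimulated replicate 1. It was 0.127 and 0.0530 without stimulated replicates 1 and 2, and 0.0748 and 0.0766 without iBP replicates 1 and 2. Genes of the list were thus called in both directions, and the 2 lower calls depended on single libraries. Whether the level of Foxp3 had a part in these differences was not tested. With iBP against unstimulated the counts were again 9 higher and 2 lower, with Ctla4 passing in place of Tnfrsf18, both of which lost their call without at least 1 library, and with iBP against stimulated the median was -0.08.

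Of 17 tested genes known to be repressed by Foxp3, 1 rose and 1 fell with stimulation. For all tested genes, 0.968% were called higher and 0.326% lower. Il17a, the interleukin 17 gene, had 10.6 and 8.98 FPKM in stimulated libraries, against 1.36 and 0.643 FPKM in unstimulated libraries, a rise of 2.45 ± 0.31 (limma adjusted p = 0.00184). In iBP libraries it had 3.22 and 4.18 FPKM, below both stimulated libraries, with a difference of -1.20 ± 0.31 (iBP against stimulated; adjusted p = 0.959). Tcf7, which encodes TCF-1, had 65.3 and 69.8 FPKM in stimulated libraries, against 134 and 128 FPKM in unstimulated libraries, and fell by 0.95 (limma adjusted p = 0.00559).

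None of 20 factors known to bind at Foxp3 regulatory elements passed limma's test in any comparison. Among those of at least 5 FPKM, the largest differences with stimulation were those of Myb (0.48, limma adjusted p = 0.439) and Klf10 (-0.42, 0.345). Of 20 partners and modifying enzymes of Foxp3 protein, 3 rose with stimulation and none fell. Across all tested genes, 0.968% were called higher and 0.326% lower. Hif1a, the oxygen-sensing factor, had 301 and 303 FPKM in stimulated libraries, against 161 and 162 FPKM in unstimulated libraries, a rise of 0.90 ± 0.11 (limma adjusted p = 0.00128). Ezh2, the Polycomb H3K27 methyltransferase, had 13.5 and 17.8 FPKM in stimulated libraries, against 7.01 and 5.76 FPKM in unstimulated libraries, a rise of 1.17 ± 0.22 (limma adjusted p = 0.0263). That call ended without unstimulated replicate 1 (0.0512), unstimulated replicate 2 (0.0845), stimulated replicate 1 (0.0587), stimulated replicate 2 (0.276) or iBP replicate 2 (0.0529), in a range of 0.00888 to 0.276 over the alternatives. Irf4, an activation-induced factor, rose by 0.81 (limma adjusted p = 0.00918), and its call ended without unstimulated replicate 1 (0.0554) or stimulated replicate 2 (0.0867), in a range of 0.00391 to 0.208.

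Corepressors that Ikaros proteins recruit, subunits of the NuRD, SIN3 and CtBP complexes, showed no call among 17 genes in any comparison. The largest differences with stimulation were those of Gatad2a, a NuRD subunit (-0.48; limma adjusted p = 0.453), and Chd3, a NuRD remodeller (0.23; 0.802; 0.0019 without unstimulated replicate 1), among genes of at least 5 FPKM. No call was made either among 11 tested genes listed as cofactors and partners of Runx proteins. Among those of at least 5 FPKM, Ubash3b differed by -0.54 (limma adjusted p = 0.458). Cbfa2t2, a corepressor of the ETO family, differed by -0.22 (0.898), with a change of sign without unstimulated replicate 2 (0.14).

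Known targets of Runx in T cells rose in 4 of 15 tested genes with stimulation and fell in none, with a median of 0.24. The shares over all tested genes were 0.968% called higher and 0.326% called lower, and their median was -0.0024. Csf2, the GM-CSF gene, had 36.6 and 45.2 FPKM in stimulated libraries, against 8.35 and 3.78 FPKM in unstimulated libraries, a rise of 2.64 ± 0.29 (limma adjusted p = 0.000854). Bcl2, the survival factor, had 39.5 and 45.3 FPKM in stimulated libraries, against 13.6 and 12.9 FPKM in unstimulated libraries, a rise of 1.61 ± 0.17 (0.000668). Gzmb, granzyme B, rose by 1.86 (limma adjusted p = 0.00559), a call that ended without stimulated replicate 2 (0.111), in a range of 0.00246 to 0.137. Il2rb, the interleukin 2 receptor beta chain, rose by 0.63 (limma adjusted p = 0.0405), in a range of 0.0100 to 0.360. Its call ended without iBP replicate 1 (0.0811), without iBP replicate 2 (0.0845), without either stimulated replicate (0.191 without replicate 1 and 0.102 without replicate 2) and without unstimulated replicate 1 (0.191).

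Of 14 tested genes known as targets of Ikaros or Helios, 2 rose with stimulation, Csf2 and Myc, and none fell. Over all tested genes, 0.968% were called higher and 0.326% lower. Myc, the growth regulator, had 389 and 459 FPKM in stimulated libraries, against 206 and 231 FPKM in unstimulated libraries, a rise of 0.95 ± 0.12 (limma adjusted p = 0.0017). With iBP against unstimulated Hes1, a Notch target, also fell, by 2.32 (limma adjusted p = 0.028), in a range of 0.00555 to 0.293. That call ended without unstimulated replicate 1 (0.149), unstimulated replicate 2 (0.0771), iBP replicate 1 (0.114) or iBP replicate 2 (0.157).

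Of 13 tested genes known to be regulated by SATB1, 2 rose and 3 fell with stimulation. Among all tested genes, 0.968% were called higher and 0.326% lower. Bcl6, a transcriptional repressor that acts in follicular T cells, had 13.3 and 15.4 FPKM in stimulated libraries. In unstimulated libraries it had 72.0 and 64.7 FPKM, so it fell by 2.18 (limma adjusted p = 6.71e-05). Il2ra had 175 and 204 FPKM in stimulated libraries, against 106 and 92.9 FPKM in unstimulated libraries, a rise of 0.92 ± 0.13 (0.00364). Ccr7 and Tcf7 were the other genes of the list that fell, and Myc the other that rose. Ccr7, a homing receptor for lymphoid tissue, differed by -0.50 (limma adjusted p = 0.0344), in a range of 0.0108 to 0.400. Its call ended without stimulated replicate 2 (0.148), without either iBP library (0.0983 for replicate 1 and 0.104 for replicate 2) and without either unstimulated library (0.0998 for replicate 1 and 0.0932 for replicate 2).

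Of the 23 list genes that passed in stimulated against unstimulated, 13 kept their call with any 1 library left out. With iBP against unstimulated 9 of 23 did, namely Gpr83, Ecm1, Lrrc32, Icos, Hif1a, Csf2, Bcl2, Myc and Bcl6. The other 14 lost it without at least 1 library, with an adjusted p of up to 0.352 for Ccr7 without iBP replicate 1. Without the filter on low values 3 of the 23 for stimulated and 4 of the 23 for iBP passed, and without the variance trend 3 and 3.

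**Figure D5:**
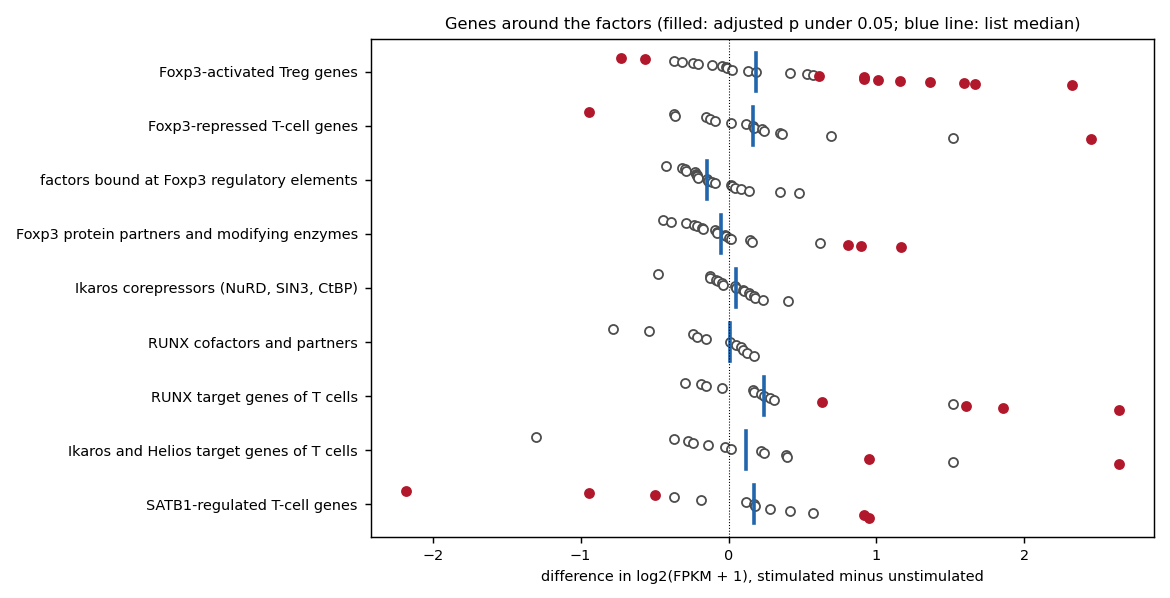
Log2 difference of each tested gene of the 9 lists for stimulated against unstimulated Treg, with genes past limma's test marked. The median of the list of Foxp3-activated genes is 0.18 and that of the factors at Foxp3 regulatory elements -0.14, with genes on both sides of 0 in each list.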

How the data were processed

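The authors deposited FPKM values for 6 libraries as one table. The submitters' processing notes name HISAT2 2.2.1, StringTie 2.1.1 and the mm10 assembly. Not given in the sources used here are annotation, filters, multi-mapped reads and strand. Close relatives such as Ikzf1 to Ikzf5 may therefore share reads, and no molecular identifiers are named that would separate PCR copies.

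The scale was log2(FPKM + 1), so fold changes of low genes are understated. Genes with at least 1 FPKM in at least 2 libraries, 10436 of 24421, entered 1 linear model with a mean per group over all 6 libraries (limma 3.58.1, R 4.3.3, moderated variances with a trend, residual df 3, prior df 8.52). Two-sided p-values had Benjamini-Hochberg adjustment over all tested genes, passing under 0.05. The procedure was tested on simulated data. Errors of differences are SE, of means SD. Leaving out a library leaves 1 in its group, taken to vary as much as the other groups do. Nothing in the labels says that replicates are separate animals, and p-values then reflect only how far these samples spread, which may be technical.

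The 10 genes and the lists, drawn from general knowledge, were chosen with earlier results of these data known. Named from each list were up to 4 genes that passed in stimulated against unstimulated by size of difference, or the 2 largest of at least 5 FPKM where none passed, and every list gene that passed in the iBP comparisons, some by count only. Icos, Lrrc32, Penk and Ccr8 in stimulated against unstimulated, and genes in a count of 5 or fewer, were named after their values were seen. Coordinates are GENCODE M21 (GRCm38), and promoter windows RefSeq for GRCm38.p6. Alternatives were another pseudocount (0.1), no filter or a minimum of 5 FPKM, rescaling to TPM, median-of-ratios or quantile scaling, no variance trend, robust moderation, only the groups compared, a replicate block, and each library left out. For list genes in stimulated against unstimulated, ranges of adjusted p also include the contrast that averaged both stimulated groups. The closing counts of values over all alternatives include it too. Plots were made in Python 3.11.15 (matplotlib 3.10.9).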

Additional observations from a re-analysis of the deposited data

How the results depend on the processing

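With 2 libraries a group and no read depth, the spread is estimated mainly from other genes, and calls depend on the variance model: prior degrees of freedom fell to 2.1 with no filter for low genes and 3.40 with no trend. With either of them dropped, none of the 10 genes passed in stimulated against unstimulated or iBP against unstimulated (0 in each, against 1), and leaving out 1 library gave 1 to 2 and 1. All-gene calls for stimulated against unstimulated (135) were 12 without the filter, 12 without the trend, 77 when fitting just the groups compared, 79 with the replicate block and 54 to 141 with a library left out. Averaging both stimulated groups, chosen after seeing the data, gave 254. For iBP against stimulated (1) they were 0 (no filter), 0 (no trend) and 0 to 5 (a library left out). For iBP against unstimulated (183) they were 11, 9, 53 to 190 with a library left out, and 109 with the replicate block. The replicate numbers share only a number: correlations of the deviations of same-numbered libraries were -0.0462, -0.0118 and -0.0185. Under the block Foxp3 kept its call (adjusted p = 0.00696 stimulated and 0.00524 with iBP, against unstimulated).

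Foxp3 stayed higher than unstimulated under every alternative run, by 1.21 to 1.61 (stimulated) and 1.37 to 1.76 (iBP). Small differences changed sign. In stimulated against unstimulated, Ikzf3 was -0.14 with both stimulated groups averaged, and with a library left out Ikzf3 ran from -0.13 to 0.19, Runx1 from -0.075 to 0.32, Runx3 from -0.37 to 0.17, Cbfa2t2 from -0.57 to 0.14 and Pstk from -0.074 to 0.27. In iBP against stimulated the ranges were -0.082 to 0.082 for Ikzf1, -0.21 to 0.021 for Ikzf4, -0.38 to 0.021 for Runx1, -0.11 to 0.0013 for Ccdc22 and -0.071 to 0.27 for Pstk. In iBP against unstimulated, Ikzf2 was 0.00095 (TPM) and 0.00057 (quantile) and Satb1 0.022 (TPM), 0.017 (median of ratios) and 0.020 (quantile). With a library left out the ranges there were -0.21 to 0.13 for Ikzf2, -0.10 to 0.058 for Satb1, -0.22 to 0.11 for Runx1 and -0.0018 to 0.52 for Cbfb. The cause of these changes was not tested. Over all alternatives, 464 values of the 10 genes and 915 of the other genes named kept direction and side of the threshold. A change of direction was seen in 21 and 4. Of the rest, 1 (Ikzf4) newly passed, and 4 (Foxp3, the settings given) and 201 no longer passed. Only Foxp3 of the 10 passed in the main fit, so for the others keeping their side meant not passing again.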

Other observations

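Close relatives outside the 10 genes were read in the same libraries. Foxp1, the forkhead relative that also acts in Treg, had 84.2 and 81.0 FPKM with iBP, 77.4 and 76.8 FPKM when stimulated and 68.4 and 84.6 FPKM when unstimulated. It was thus above Foxp3 in both unstimulated libraries and below it in all 4 stimulated ones. Foxp4 lay between 3.15 and 4.41 FPKM in every library. Runx2, the third Runt factor, had 3.43 and 1.47 FPKM with iBP, 1.95 and 1.37 FPKM when stimulated and 2.91 and 4.27 FPKM when unstimulated, so it was the least abundant of the 3. Its difference of -0.78 for stimulated against unstimulated did not pass (limma adjusted p = 0.479).

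Ppp1r3f, which overlaps Foxp3 on the other strand, had 4.62 and 6.98 FPKM with iBP, 3.66 and 3.49 FPKM when stimulated and 1.70 and 1.44 FPKM when unstimulated. Its libraries thus lay in the order iBP, stimulated, unstimulated with no overlap. Against unstimulated the log2 difference was 1.38 with iBP (limma adjusted p = 0.0463) and 0.83 when stimulated (0.320). The call with iBP ended whichever library was left out, at an adjusted p of 0.0716 to 0.398, in a range of 0.0347 to 0.398 over all alternatives. Whether these reads belong to Ppp1r3f or to Foxp3 was not tested. Pstk shares 5831 bp with Ikzf5 on the other strand and had 12.0 and 11.8 FPKM with iBP, 12.6 and 9.67 FPKM when stimulated and 10.5 and 10.01 FPKM when unstimulated, close to the level of Ikzf5.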
